A study of Homo sapiens with 6 samples.

Results

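The genes described here are the ligands and receptors of axon guidance: the semaphorins and plexins, the netrins and UNC5 receptors, the slits and roundabout (ROBO) receptors, and the ephrins and Eph receptors. The choice was made with earlier results of these data known. It took protein-coding genes by symbol, those named SEMA, ROBO, SLIT, NTN, EPHA, EPHB, EFNA or EFNB followed by a digit. Also taken were protein-coding genes named UNC5 followed by a letter A to D, or PLXN. This gave 67 genes of the 30949 in the expression table, 17152 of which were protein-coding. One of the 67, UNC5CL, matches by the letters of its symbol only and is not a netrin receptor. Bulk poly-A RNA-seq was done on human astrocytes held as floating aggregates inside alginate capsules in a neural medium. The ITC group received interleukin-1 alpha, TNF alpha and complement C1q together, the vehicle group received vehicle alone, and RNA was taken 48 hours after treatment. Each group had 3 libraries. All 6 libraries were wild-type and came from WTC11, a widely used line of human induced pluripotent stem cells, so both groups describe a single line. Capsules were made in 3 batches, each split over both treatments.

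Semaphorins are secreted or membrane-bound proteins that act mainly through plexins, with neuropilins as co-receptors for most secreted forms. Netrins attract axons through DCC and repel them through UNC5 receptors, and slits repel through ROBO receptors. Ephrins and Eph receptors are both held at the cell surface, where the Eph receptor tyrosine kinases and their ligands can signal in both directions. Astrocytes express members of all of these families, and semaphorins and ephrins have been studied as inhibitors of axon growth around injuries of the central nervous system.

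The libraries held 18623454, 19327421 and 17808993 counts in ITC and 20203844, 17398921 and 29941685 counts in vehicle. The guidance genes took 0.564%, 0.591% and 0.526% of these counts in ITC and 0.484%, 0.457% and 0.394% in vehicle. Of 8 astrocyte markers, all passed the filter on low counts: 1 was higher in ITC, 6 were lower and 1, GFAP, was not called, and their summed level was 427 to 553 FPKM in ITC and 535 to 579 FPKM in vehicle. Markers of other cells also moved with treatment. The summed level of 9 neuron markers was 35.1 to 45.5 FPKM in ITC and 88.2 to 114 FPKM in vehicle, with 4 of 7 tested lower and RBFOX3 near 0 in both groups. For 8 oligodendrocyte lineage markers it was 13.9 to 16.1 FPKM in ITC and 49.6 to 64.4 FPKM in vehicle (3 of 6 tested higher and 3 lower), with SOX10 and MOG near 0. All 5 markers of dividing cells were lower, at 7.01 to 7.92 FPKM in ITC and 90.5 to 94.6 FPKM in vehicle. Neural progenitor markers summed to 675 to 841 FPKM in ITC and 624 to 851 FPKM in vehicle, with 1 of 5 higher and 4 lower. Mesenchymal markers summed to 72.4 to 93.8 FPKM in ITC and 75.4 to 89.3 FPKM in vehicle, with 1 of 6 higher and 2 lower. Of 6 endothelial markers 2 were tested and both were higher, in sums of 1.06 to 1.26 FPKM in ITC and 0.285 to 0.371 FPKM in vehicle. Of 6 microglia markers 4 have a row and 0 were tested, AIF1 had 0 counts in ITC, and they summed to at most 0.254 FPKM in ITC and 0.184 FPKM in vehicle. The part of these shifts in the results below was not tested. In bulk RNA, fewer cells of a type and less RNA per cell cannot be told apart.

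Relative to the other RNA of each library, capsules given ITC had more mRNA for NTN1, SEMA3C, SEMA5A, PLXNB1, PLXNB2, ROBO1, EPHA2 and EFNA1. On the same relative scale they had less for EPHB1, EPHA3, EPHA4, SEMA5B, SEMA6A, SEMA6D, SEMA3E, ROBO2 and all 3 ephrin-B ligands. Of the 67 genes, 62 passed the filter on low counts. At an adjusted p under 0.05 (edgeR's quasi-likelihood test, Benjamini-Hochberg over 16756 genes), 18 were higher in ITC, 21 were lower and 23 were not called. The share called among all tested genes was 39.4%, with 20.4% higher and 19.0% lower, against 29.03% and 33.9% of the 62. The median log2 fold change was -0.09 over the 62 genes and -0.01 over all tested genes. Among the 33 ligands tested, 7 were higher and 11 lower, and among the 29 receptors 11 were higher and 10 lower. Falls of at least 4-fold were found in 9 of the 62 (14.5%) and such rises in 0, while over all tested genes 4.29% fell and 4.39% rose by at least 4-fold. The count of 9 became 5 without ITC replicate 1, where EPHA4, SEMA3E, UNC5D and SEMA6A no longer reached 4-fold, and the count of 0 became 1 without ITC replicate 1 or vehicle replicate 3 (SEMA3C) and without ITC replicate 3 or vehicle replicate 2 (SEMA5A). In counts scaled by TMM (CPM, defined below), the groups did not overlap in 44 of the 62 genes (71.0%), against 50.2% of all tested genes. On that scale they overlapped in none of the 39 called, and the uncalled EFNA4, EPHA10, NTN3, PLXNC1 and SEMA4G were also apart. In the deposited FPKM, PLXNA2, called lower, had 0.836 in ITC replicate 1 and 0.805 in vehicle replicate 3, so there its groups overlapped.

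The split between higher and lower depended on how libraries were scaled. It was 18 higher and 21 lower with the TMM scaling used throughout, 13 and 24 with upper quartile scaling, and 12 and 24 with library size only, under which the median log2 fold change of all genes was -0.16 and -0.24. Of the 39 calls, 28 were made under each of 14 other settings and 11 were lost under at least 1, and no call turned to the opposite direction. In what follows, a level of 1 gene across libraries is in CPM, the counts per 1000000 counts of the library with TMM scaling. Where genes are compared with each other, or summed, the level is the deposited FPKM, given as mean ± SD over the 3 libraries of a group. A log2 fold change is ITC over vehicle ± its standard error, and for genes named only briefly it stands in parentheses after the name.

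**Figure D1:**
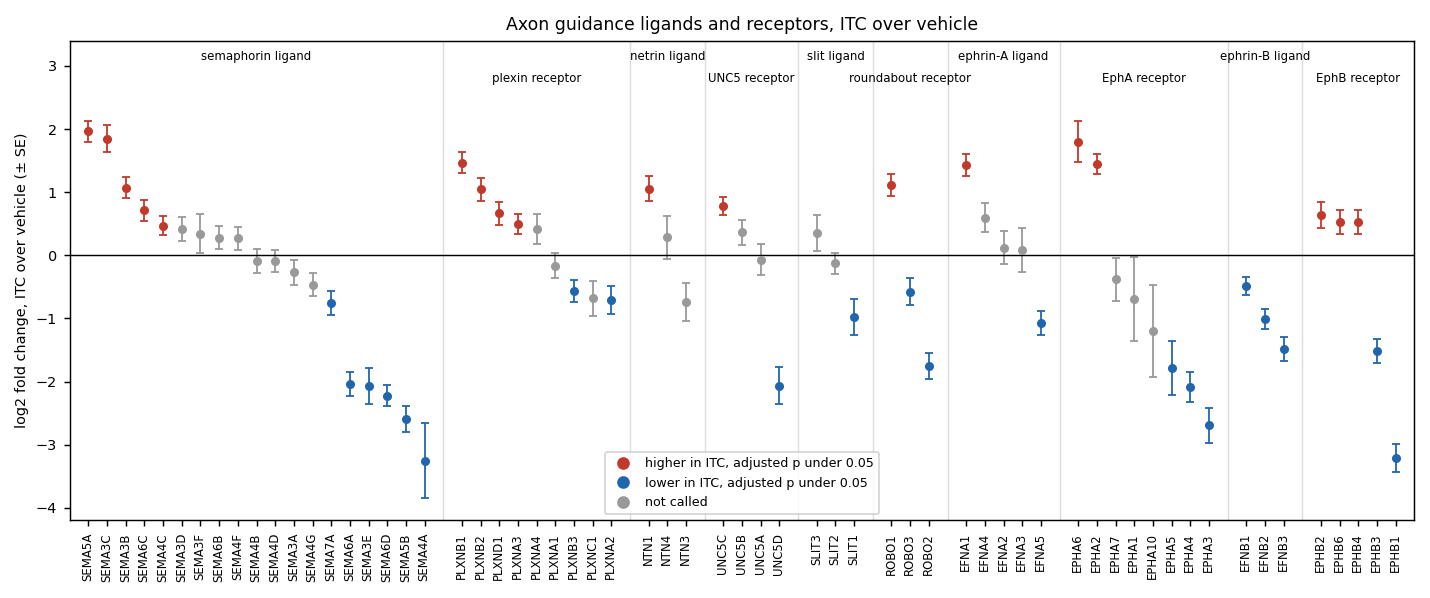
Log2 fold change of ITC over vehicle (y axis, ± SE) of the 62 tested guidance genes, grouped by family along the x axis; each point is 1 gene from the fit over 3 ITC and 3 vehicle libraries, red where higher, blue where lower and grey where not called. Rises stay under 2 on the log2 scale (SEMA5A, 1.97 ± 0.17, is the largest) and falls reach -3.25 ± 0.59 in SEMA4A and -3.22 ± 0.23 in EPHB1.

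Among 19 semaphorins tested, 5 were higher, 6 lower and 8 not called. Class 3 semaphorins are secreted, and SEMA3C was the most abundant of them in both groups. SEMA3C had 765, 1146 and 1133 CPM in the ITC libraries, against 247, 232 and 364 CPM in the vehicle libraries (log2 fold change 1.85 ± 0.21 SE, adjusted p = 7.66e-06). Each ITC library was at least 2-fold above each vehicle library, with ITC replicate 1 the lowest of its group and vehicle replicate 3 the highest. Per length it was at 167 ± 33.4 FPKM in ITC and 45.8 ± 10.8 FPKM in vehicle, a mean below that of NTN1 alone among the guidance genes in ITC. SEMA3B, a secreted semaphorin known as a candidate tumour suppressor, had 32.8, 38.5 and 30.8 CPM in the ITC libraries, against 15.5, 18.4 and 14.8 CPM in the vehicle libraries (log2 fold change 1.07 ± 0.17 SE, adjusted p = 1.26e-04), with the groups apart. In SEMA3E, which binds plexin-D1 without a neuropilin, the change ran the other way. SEMA3E had 4.24, 12.5 and 10.5 CPM in the ITC libraries, against 34.6, 38.5 and 41.3 CPM in the vehicle libraries (log2 fold change -2.07 ± 0.28 SE, adjusted p = 3.66e-05). The ITC libraries all lay lower, and ITC replicate 1 was furthest from vehicle. SEMA3A, the growth cone collapsing ligand of neuropilin-1, was not called (log2 fold change -0.27 ± 0.19 SE, adjusted p = 0.289). It had 109.9, 194 and 168 CPM in ITC and 185, 178 and 206 CPM in vehicle, with 2 ITC libraries below the vehicle range and 1 within it. SEMA3D had 54.99, 70.4 and 87.9 CPM in ITC and 53.2, 42.8 and 63.8 CPM in vehicle and was not called (log2 fold change 0.41 ± 0.19 SE, adjusted p = 0.105), but was called higher without ITC replicate 1 (adjusted p = 0.0369) and without vehicle replicate 3 (0.0416). SEMA3F was not called either (0.34 ± 0.31).

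The mix of class 3 semaphorins differed between the groups. SEMA3C made up 82.9 ± 0.354% in ITC and 55.8 ± 4.08% in vehicle of the summed class 3 FPKM (SD, n = 3 each), and SEMA3A 8.51 ± 0.742% in ITC and 25.6 ± 2.37% in vehicle. A share within a family does not depend on the scaling between libraries. The exact two-sided permutation p of each share named here is 0.1, the smallest that 3 against 3 libraries allow. The class 3 sum itself was 201 ± 39.8 FPKM in ITC and 81.5 ± 12.9 FPKM in vehicle.

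The steepest falls among all ligands were in the membrane-bound semaphorins SEMA4A, SEMA5B and SEMA6D. Class 5 semaphorins carry thrombospondin repeats, and both members were called, in opposite directions. SEMA5A had 120.4, 127 and 109 CPM in the ITC libraries, against 31.1, 34.7 and 25.3 CPM in the vehicle libraries (log2 fold change 1.97 ± 0.17 SE, adjusted p = 2.59e-07). SEMA5B had 27.1, 28.6 and 18.6 CPM in the ITC libraries, against 163, 166 and 119.5 CPM in the vehicle libraries (log2 fold change -2.59 ± 0.20 SE, adjusted p = 1.09e-07). In neither gene did any library come near the other group. The pair changed places: SEMA5A was 75.8%, 75.8% and 80.5% of the class 5 FPKM in the ITC libraries, against 11.9%, 12.8% and 12.9% in the vehicle libraries. Among 20 semaphorins ranked by FPKM, SEMA5A had rank 5 in ITC and rank 15 in vehicle, and SEMA5B had rank 12 in ITC and rank 4 in vehicle.

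Class 6 semaphorins are transmembrane ligands of plexin-A receptors. SEMA6A, which binds plexin-A2 and plexin-A4, had 63.5, 82.4 and 56.6 CPM in the ITC libraries, against 326, 278 and 226 CPM in the vehicle libraries (log2 fold change -2.04 ± 0.19 SE, adjusted p = 9.01e-07). SEMA6D, a ligand of plexin-A1, had 6.91, 8.76 and 8.13 CPM in the ITC libraries, against 39.2, 36.7 and 35.3 CPM in the vehicle libraries (log2 fold change -2.22 ± 0.17 SE, adjusted p = 9.12e-08). Both were lower in each ITC library than in any vehicle library. SEMA6C moved the other way, with 32.01, 24.5 and 24.3 CPM in the ITC libraries, against 17.2, 16.5 and 15.6 CPM in the vehicle libraries (log2 fold change 0.71 ± 0.17 SE, adjusted p = 0.00372). SEMA6B had 62.6, 46.03 and 46.97 CPM in ITC and 48.6, 45.8 and 33.9 CPM in vehicle and was not called (log2 fold change 0.28 ± 0.18 SE, adjusted p = 0.239). SEMA6A was 26.4 ± 5.405% in ITC and 59.8 ± 1.56% in vehicle of class 6 FPKM, and SEMA6B was 49.9 ± 4.54% in ITC and 22.96 ± 1.18% in vehicle.

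SEMA4A, a class 4 semaphorin with known roles in immune cells, had the most negative estimate of the 62 genes and few reads. Its counts were 8, 8 and 0 in ITC and 79, 45 and 97 in vehicle, or 0.485, 0.444 and 0 CPM in ITC and 3.66, 2.35 and 2.99 CPM in vehicle (log2 fold change -3.25 ± 0.59 SE, adjusted p = 5.01e-04). The groups did not overlap, and the size of the fall is loosely fixed by so few counts. SEMA7A, the lipid-anchored semaphorin that binds integrins and plexin-C1, had 9.28, 9.82 and 8.66 CPM in the ITC libraries, against 17.8, 16.7 and 12.4 CPM in the vehicle libraries (log2 fold change -0.75 ± 0.19 SE, adjusted p = 0.00647). SEMA4C, a plexin-B2 ligand, had 92.3, 87.9 and 75.8 CPM in ITC and 60.5, 64.4 and 59.5 CPM in vehicle (log2 fold change 0.47 ± 0.15 SE, adjusted p = 0.0202), with the groups apart but close. Its call was lost with upper quartile scaling (adjusted p = 0.0790), with library size only as the scale (0.194), without ITC replicate 2 (0.0819), without vehicle replicate 1 (0.0579), without vehicle replicate 2 (0.0990) and without vehicle replicate 3 (0.0648). SEMA4B had 52.5, 41.1 and 36.7 CPM in ITC and 54.7, 48.5 and 35.2 CPM in vehicle, overlapping groups (log2 fold change -0.09 ± 0.19 SE, adjusted p = 0.744). SEMA4D, the plexin-B1 ligand, was not called (-0.10 ± 0.18), nor were SEMA4F (0.27 ± 0.18) and SEMA4G (-0.46 ± 0.19, adjusted p = 0.0652). SEMA4G was called lower with upper quartile scaling (adjusted p = 0.0190), with library size only as the scale (0.00926) and without vehicle replicate 3 (0.0354), and 27.4% of its exon bases are shared with other genes, most of them with MRPL43 on the opposite strand. Whether counting used strand is not given in the sources used here, so its value is uncertain.

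**Figure D2:**
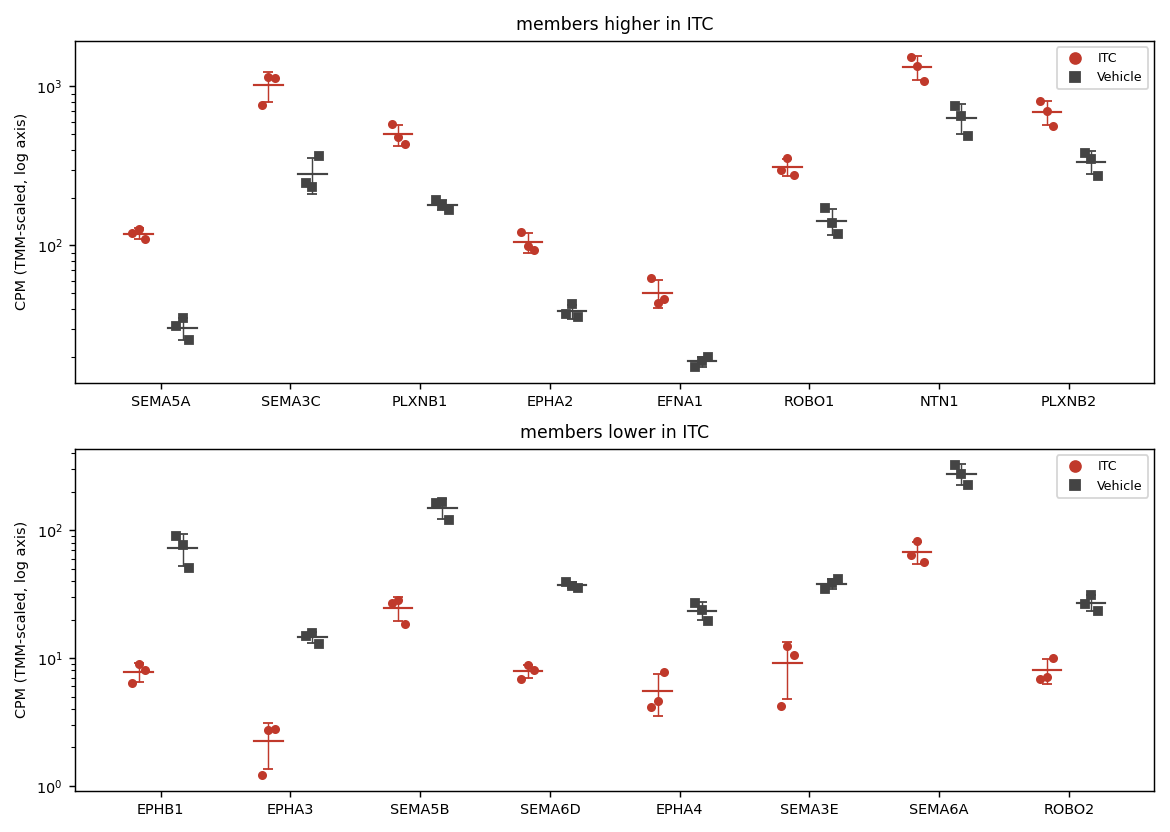
CPM with TMM scaling (y axis, log scale) of 8 guidance genes higher in ITC and 8 lower; circles are the 3 ITC libraries, squares the 3 vehicle libraries, the long bar their mean and the whiskers 1 SD. In each of the 16 genes the groups do not overlap, and EPHB1 has 6.43 to 8.98 CPM in ITC against 51.0 to 90.8 CPM in vehicle.

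Plexins are the transmembrane receptors of semaphorins. Of 9 tested, 4 were higher, 2 lower and 3 not called. The plexin-B group summed to 156 ± 28.3 FPKM in ITC and 72.7 ± 10.02 FPKM in vehicle. PLXNB1 had 579.8, 482 and 434 CPM in the ITC libraries, against 194, 179 and 167 CPM in the vehicle libraries (log2 fold change 1.47 ± 0.17 SE, adjusted p = 5.91e-06). PLXNB2 had 807, 702 and 567 CPM in the ITC libraries, against 381, 349 and 274 CPM in the vehicle libraries (log2 fold change 1.05 ± 0.18 SE, adjusted p = 3.67e-04). In both, each ITC library was above each vehicle library, and replicate 1 was the highest and replicate 3 the lowest of either group. Per length PLXNB2 was the most abundant receptor of the 67 genes in both groups, at 98.6 ± 18.8 FPKM in ITC and 47.3 ± 8.76 FPKM in vehicle, and PLXNB1 was at 52.9 ± 8.83 FPKM in ITC and 18.9 ± 1.86 FPKM in vehicle. PLXNB3 went down, with 34.1, 31.8 and 23.1 CPM in ITC and 37.8, 45.9 and 48.1 CPM in vehicle (log2 fold change -0.57 ± 0.18 SE, adjusted p = 0.0197). That call was lost without ITC replicate 3 (adjusted p = 0.104) and without vehicle replicate 2 (0.0590), and 20.4% of PLXNB3 exon bases are shared with SRPK3 on the same strand, so its value is uncertain.

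PLXND1, the receptor of SEMA3E, had 326, 262 and 220.2 CPM in ITC and 201, 169 and 139 CPM in vehicle (log2 fold change 0.66 ± 0.19 SE, adjusted p = 0.0115), and so was higher in ITC while its ligand was lower. The PLXND1 call was lost with library size only as the scale (adjusted p = 0.0647), without ITC replicate 1 (0.0532) and without vehicle replicate 2 (0.0641). PLXNA3, which signals with neuropilin-2, had 186, 172 and 146 CPM in ITC and 117, 116 and 125 CPM in vehicle (log2 fold change 0.50 ± 0.15 SE, adjusted p = 0.0191). The groups stood clear of each other, yet the call was lost with upper quartile scaling (adjusted p = 0.0721), with library size only as the scale (0.163), without ITC replicate 2 (0.0760), without vehicle replicate 1 (0.0525) and without vehicle replicate 2 (0.137). PLXNA2, a SEMA6A receptor, had 10.97, 10.1 and 8.07 CPM in ITC and 17.1, 19.4 and 11.1 CPM in vehicle (log2 fold change -0.70 ± 0.22 SE, adjusted p = 0.0221), and lost its call without ITC replicate 2 (adjusted p = 0.0570), without ITC replicate 3 (0.0701) and without vehicle replicate 2 (0.102). PLXNA1 had 164, 152 and 122 CPM in ITC and 195, 178 and 118 CPM in vehicle, which overlapped (log2 fold change -0.16 ± 0.20 SE, adjusted p = 0.537). PLXNA4 (0.42 ± 0.24) and PLXNC1 (-0.68 ± 0.27, adjusted p = 0.0594) were not called. PLXNA4 was called higher without vehicle replicate 1 (adjusted p = 0.0455). PLXNC1, the SEMA7A receptor, was called lower with upper quartile scaling (adjusted p = 0.0257), with library size only as the scale (0.0149) and without vehicle replicate 3 (0.0206).

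NTN1, the secreted attractant of commissural axons, had the highest mean FPKM of the guidance genes in both groups. NTN1 had 1532, 1351 and 1088 CPM in the ITC libraries, against 758, 656 and 491 CPM in the vehicle libraries (log2 fold change 1.06 ± 0.19 SE, adjusted p = 5.11e-04). The lowest ITC library was above the highest vehicle library, and replicates 1 were the highest of either group. Per length it stood at 214 ± 39.7 FPKM in ITC and 102 ± 23.7 FPKM in vehicle, and NTN1 alone made up nearly all of the summed netrin level (217 ± 39.9 FPKM in ITC and 105 ± 24.2 FPKM in vehicle). NTN4, a netrin of basement membranes, was not called (0.28 ± 0.35). NTN3 was not called (-0.74 ± 0.30, adjusted p = 0.0639) and was called lower with upper quartile scaling (adjusted p = 0.0302), with library size only as the scale (0.0180) and without vehicle replicate 3 (0.00895). The NTN3 groups were narrowly apart in CPM, at 3.11 in ITC replicate 2 and 3.18 in vehicle replicate 3. In FPKM they overlapped, at 1.61 and 1.60 in the same libraries.

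Of the UNC5 receptors, through which netrins repel, UNC5C was higher and UNC5D lower. UNC5C had 78.03, 87.9 and 79.4 CPM in the ITC libraries, against 46.3, 45.9 and 50.05 CPM in the vehicle libraries (log2 fold change 0.79 ± 0.14 SE, adjusted p = 5.18e-04). UNC5D had 1.52, 3.88 and 2.48 CPM in the ITC libraries, against 12.2, 11.6 and 9.35 CPM in the vehicle libraries (log2 fold change -2.07 ± 0.29 SE, adjusted p = 5.65e-05). Neither pair of groups overlapped. UNC5A (-0.07 ± 0.25) and UNC5B (0.36 ± 0.20) were not called, and UNC5B was called higher without vehicle replicate 1 (adjusted p = 0.0338). Per length the 4 receptors summed to 14.3 ± 1.41 FPKM in ITC and 10.96 ± 1.52 FPKM in vehicle.

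Slits are large secreted repellents. SLIT2 had 45.05, 64.3 and 50.98 CPM in ITC and 67.95, 53.2 and 53.8 CPM in vehicle and was not called (log2 fold change -0.13 ± 0.17 SE, adjusted p = 0.589), with the groups overlapping. SLIT3 was not called (0.35 ± 0.28). SLIT1 was low, with 2.73, 2.99 and 2.24 CPM in ITC and 5.14, 6.64 and 4.01 CPM in vehicle (log2 fold change -0.98 ± 0.28 SE, adjusted p = 0.0126), and its call was lost without vehicle replicate 2 (adjusted p = 0.0763). The summed slit level was 6.26 ± 1.04 FPKM in ITC and 6.98 ± 1.07 FPKM in vehicle.

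All 3 tested roundabout receptors of the slits were called, ROBO1 higher and ROBO2 and ROBO3 lower. ROBO1 had 299, 355 and 279 CPM in the ITC libraries, against 173, 138 and 119 CPM in the vehicle libraries (log2 fold change 1.12 ± 0.18 SE, adjusted p = 1.59e-04). ROBO2 had 6.85, 7.15 and 10.1 CPM in the ITC libraries, against 26.7, 31.2 and 23.4 CPM in the vehicle libraries (log2 fold change -1.75 ± 0.20 SE, adjusted p = 6.16e-06). The groups were apart in both genes. ROBO3, whose product lets commissural axons cross the midline, had 9.52, 7.76 and 10.7 CPM in ITC and 12, 12.1 and 17.6 CPM in vehicle (log2 fold change -0.58 ± 0.21 SE, adjusted p = 0.0425). Its call was lost without ITC replicate 1 (adjusted p = 0.0935), without ITC replicate 2 (0.190), without vehicle replicate 3 (0.135) and by DESeq2 (0.0579). ROBO1 was 93.8 ± 1.64% in ITC and 78.1 ± 4.58% in vehicle of the summed ROBO FPKM, and ROBO2 was 1.61 ± 0.495% in ITC and 9.76 ± 1.58% in vehicle. ROBO1 and ROBO2 are neighbours on chromosome 3 of GRCh38, at chr3:78597240-79767815 and chr3:75906695-77649964, with a gap of 947 kb and 0 protein-coding genes of the annotation between them. A like arrangement holds on chromosome 7, where SEMA3C (chr7:80742538-80922359), SEMA3E (chr7:83363238-83649113), SEMA3A (chr7:83955777-84492724) and SEMA3D (chr7:84995553-85186855) follow each other with 3, 0 and 0 protein-coding genes in the gaps. Of these 4, SEMA3C was higher, SEMA3E lower and the others not called.

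Ephrin-A ligands are lipid-anchored and bind mainly EphA receptors. EFNA1, first described as a cytokine-induced transcript of endothelial cells, had 62.1, 43.3 and 45.8 CPM in the ITC libraries, against 17.2, 18.8 and 19.9 CPM in the vehicle libraries (log2 fold change 1.43 ± 0.17 SE, adjusted p = 1.16e-05). Every ITC library was more than 2-fold above every vehicle library. EFNA5 had 5.396, 6.43 and 6.78 CPM in the ITC libraries, against 14.04, 12.4 and 12.8 CPM in the vehicle libraries (log2 fold change -1.07 ± 0.19 SE, adjusted p = 4.58e-04), with no overlap. EFNA4 was not called (log2 fold change 0.59 ± 0.23 SE, adjusted p = 0.0546) but was called higher without ITC replicate 2 (adjusted p = 0.0416). EFNA2 (0.12 ± 0.27) and EFNA3 (0.08 ± 0.35) were not called. EFNA4, EFNA3 and EFNA1 lie side by side on chromosome 1 (chr1:155063731-155134857). EFNA3 shares 44.7% of its exon bases, and EFNA4 15.0%, with an overlapping gene model on the same strand, AL691442.1, so both values are uncertain. EFNA1 shares 0%.

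EphA receptors split, with 2 higher, 3 lower and 3 not called of 8 tested. EPHA2, a receptor of EFNA1, had 122, 98.7 and 94.1 CPM in the ITC libraries, against 37.01, 42.9 and 35.7 CPM in the vehicle libraries (log2 fold change 1.45 ± 0.16 SE, adjusted p = 5.08e-06). Receptor and ligand were thus both higher in ITC, and in EPHA2 too each ITC library was more than 2-fold above each vehicle library. EPHA6 had 4.001, 5.16 and 3.65 CPM in the ITC libraries, against 1.11, 1.57 and 1.02 CPM in the vehicle libraries (log2 fold change 1.80 ± 0.33 SE, adjusted p = 4.71e-04), a rise at a low level. EPHA3, a high-affinity receptor of EFNA5, had 1.21, 2.72 and 2.77 CPM in the ITC libraries, against 15.01, 15.7 and 12.97 CPM in the vehicle libraries (log2 fold change -2.70 ± 0.28 SE, adjusted p = 2.09e-06). EPHA4, which binds both ephrin classes and has been studied on reactive astrocytes, had 4.12, 4.603 and 7.78 CPM in the ITC libraries, against 26.96, 23.95 and 19.5 CPM in the vehicle libraries (log2 fold change -2.09 ± 0.24 SE, adjusted p = 6.87e-06). EPHA5 had 0.606, 0.444 and 0.707 CPM in ITC and 1.76, 1.83 and 2.47 CPM in vehicle (log2 fold change -1.79 ± 0.42 SE, adjusted p = 0.00384). In EPHA3, EPHA4 and EPHA5 no ITC library reached the vehicle range. Exons of EPHA5-AS1, an antisense gene, cover 5.44% of the EPHA5 exon bases and had 0, 0 and 0 counts in ITC and 0, 3 and 34 counts in vehicle, while EPHA5 had 10, 8 and 12 counts in ITC and 38, 35 and 80 counts in vehicle. The EPHA5 value is uncertain, above all in vehicle replicate 3. EPHA2 made up 87.5 ± 4.87% in ITC and 53.7 ± 2.94% in vehicle of the summed EphA FPKM, and EPHA3 1.196 ± 0.539% in ITC and 12.7 ± 1.05% in vehicle. EPHA1 (-0.69 ± 0.67), EPHA7 (-0.38 ± 0.34) and EPHA10 (-1.20 ± 0.73) were not called. Few reads limit EPHA1, with 20 counts in ITC and 49 in vehicle, and EPHA10, with 15 and 48. The EPHA10 groups barely missed each other in CPM, at 0.555 in ITC replicate 2 and 0.556 in vehicle replicate 3. In FPKM they overlapped, at 0.0700 and 0.0683 in the same libraries.

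All 3 transmembrane ephrin-B ligands were lower in ITC, and their summed level was 37.3 ± 2.65 FPKM in ITC and 75.3 ± 11.6 FPKM in vehicle. EFNB3, a repellent of corticospinal axons at the midline in mouse, had 49.96, 42.2 and 37.7 CPM in the ITC libraries, against 144, 128 and 91.2 CPM in the vehicle libraries (log2 fold change -1.49 ± 0.19 SE, adjusted p = 1.87e-05). EFNB2, the arterial partner of EPHB4, had 29.9, 32.6 and 36.7 CPM in the ITC libraries, against 70.7, 69.98 and 59.2 CPM in the vehicle libraries (log2 fold change -1.01 ± 0.15 SE, adjusted p = 1.09e-04). EFNB1 had 56.1, 51.6 and 52.6 CPM in the ITC libraries, against 70.9, 80.4 and 72.5 CPM in the vehicle libraries (log2 fold change -0.48 ± 0.14 SE, adjusted p = 0.0154). The groups did not overlap in any of the 3. The EFNB1 call was lost without ITC replicate 2 (adjusted p = 0.0932), without ITC replicate 3 (0.0589) and without vehicle replicate 2 (0.0930), while the estimates of all 3 were below 0 under each setting run. An antisense gene, AL138689.2, covers 26.2% of the EFNB2 exon bases and had 2, 4 and 4 counts in ITC and 14, 7 and 17 counts in vehicle, while EFNB2 had 493, 588 and 623 counts in ITC and 1527, 1338 and 1916 counts in vehicle. The EFNB2 value is uncertain to that extent.

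All 5 EphB receptors were called, 2 lower and 3 higher. EPHB1 had 6.43, 8.98 and 8.07 CPM in the ITC libraries, against 90.8, 76.7 and 51.04 CPM in the vehicle libraries (log2 fold change -3.22 ± 0.23 SE, adjusted p = 3.76e-08). It had the steepest fall among members with over 10 CPM in vehicle. EPHB3 had 52.6, 45.3 and 39.9 CPM in the ITC libraries, against 165, 130.1 and 101 CPM in the vehicle libraries (log2 fold change -1.52 ± 0.19 SE, adjusted p = 1.63e-05). Both fell in each ITC library below the vehicle range. The 3 that were higher rose less. EPHB2 had 122, 94.3 and 78.4 CPM in ITC and 71.98, 70.8 and 46.3 CPM in vehicle (log2 fold change 0.64 ± 0.20 SE, adjusted p = 0.0213). EPHB4, the EFNB2 receptor, had 153, 123 and 103 CPM in ITC and 98.5, 95.7 and 68.2 CPM in vehicle (log2 fold change 0.53 ± 0.19 SE, adjusted p = 0.0380). EPHB6, which lacks kinase activity, had 15.5, 13.03 and 12.1 CPM in ITC and 10.6, 9.36 and 8.18 CPM in vehicle (log2 fold change 0.53 ± 0.19 SE, adjusted p = 0.0381). In these 3 genes the lowest ITC library was only just above the highest vehicle library. The EPHB2 call was lost with upper quartile scaling (adjusted p = 0.0572), with library size only as the scale (0.110), without ITC replicate 1 (0.105) and without vehicle replicate 3 (0.0922). The EPHB4 call was lost with upper quartile scaling (adjusted p = 0.105), with library size only as the scale (0.209), without ITC replicate 1 (0.144), without ITC replicate 2 (0.0814), without vehicle replicate 2 (0.0907) and without vehicle replicate 3 (0.172). The EPHB6 call was lost with upper quartile scaling (adjusted p = 0.110), with library size only as the scale (0.214), without a filter on low counts (0.0745), without ITC replicate 1 (0.103), without ITC replicate 2 (0.0800), without vehicle replicate 2 (0.141), without vehicle replicate 3 (0.145) and by DESeq2 (0.0624). None of the 3 rises kept its call under every setting. Within the family, EPHB3 was 24.7 ± 0.886% in ITC and 48.5 ± 2.003% in vehicle of the summed EphB FPKM, EPHB4 was 47.4 ± 1.09% in ITC and 22.8 ± 1.48% in vehicle, and EPHB1 was 2.82 ± 0.809% in ITC and 17.3 ± 1.04% in vehicle.

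**Figure D3:**
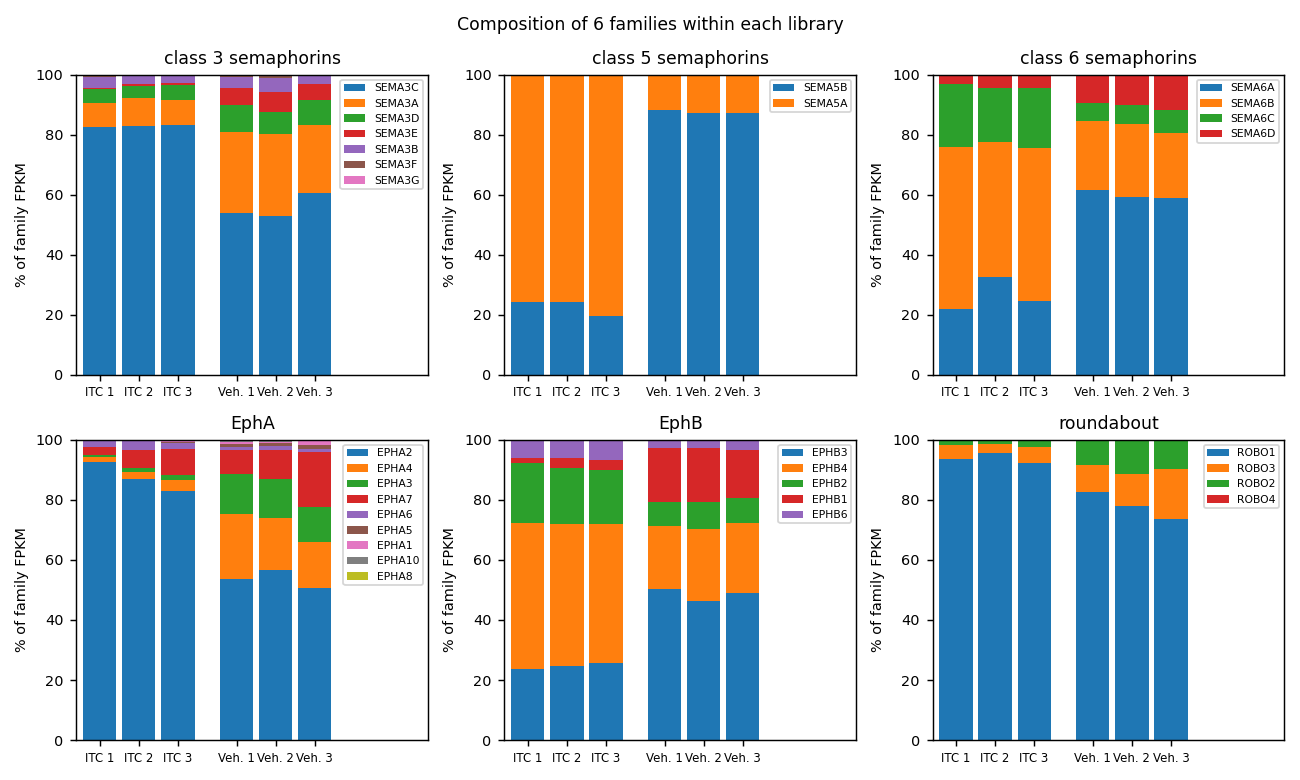
Share of each member in the summed FPKM of its family (y axis, %), in 6 families; each bar is 1 library, the 3 ITC libraries left of the 3 vehicle libraries. SEMA5A takes 75.8% to 80.5% of the class 5 level in ITC and 11.9% to 12.9% in vehicle, and the leading EphB receptor is EPHB4 in ITC and EPHB3 in vehicle.

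Across the 67 genes, the order of mean levels per length was led by NTN1, SEMA3C, PLXNB2 and PLXNB1 in ITC. NTN1 was above SEMA3C in ITC replicates 1 and 2, and in ITC replicate 3 SEMA3C was the higher, at 183 FPKM against 173 FPKM. In vehicle the means were led by NTN1, PLXNB2, SEMA3C and EFNB3. PLXNB2 and SEMA3C stood at 47.3 ± 8.76 FPKM and 45.8 ± 10.8 FPKM in vehicle. In vehicle replicates 1 to 3, PLXNB2 had 54.9, 49.3 and 37.7 FPKM, above EFNB3 each time (46.8, 40.8 and 28.3 FPKM). SEMA3C had 41.3, 38.0 and 58.1 FPKM there, below both in replicates 1 and 2 and above both in replicate 3. EFNB3 stood at 13.9 ± 2.24 FPKM in ITC and 38.6 ± 9.41 FPKM in vehicle, and EPHB3 at 10.5 ± 1.64 FPKM in ITC and 29.9 ± 7.81 FPKM in vehicle. EPHA2 was at 26.1 ± 4.18 FPKM in ITC and 9.49 ± 1.01 FPKM in vehicle, giving it rank 7 of the 67 in ITC and rank 20 in vehicle. The 5 genes that did not pass the filter had few counts. Over the 3 libraries of each group, EPHA8 had 0 counts in ITC and 3 in vehicle, NTN5 16 and 37, ROBO4 19 and 7, SEMA3G 4 and 26, and UNC5CL 5 and 37. The EPHA8 reads were all in vehicle replicate 2 and are too few to give a level.

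**Figure D4:**
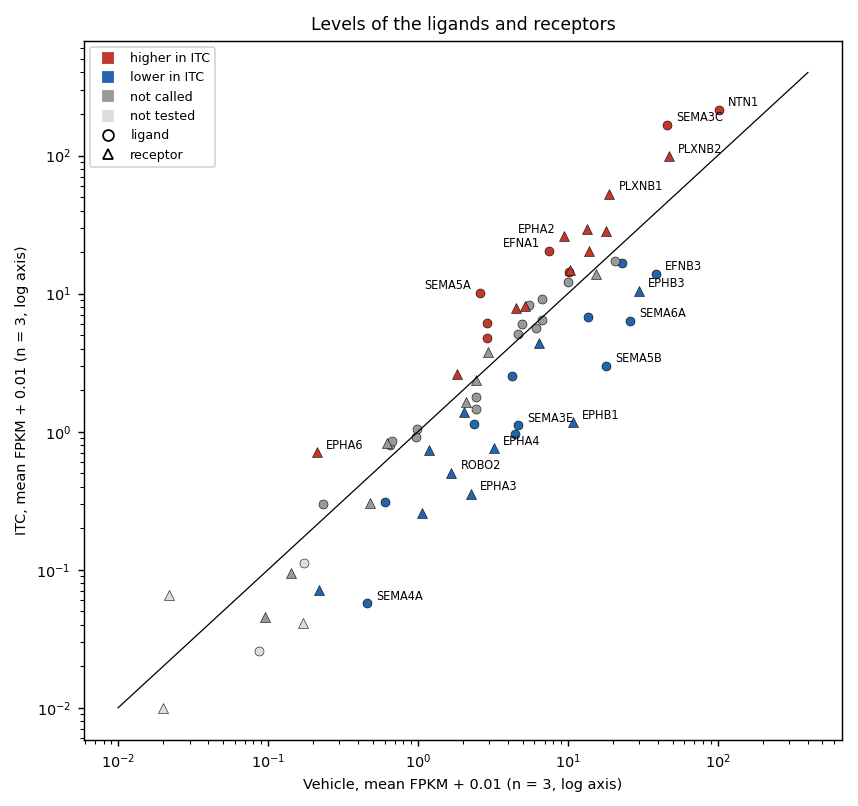
Mean FPKM + 0.01 of the 67 guidance genes in ITC (y axis, log scale) against vehicle (x axis, log scale), n = 3 libraries each; circles are ligands, triangles receptors and the line marks equal levels, with colours for higher, lower, not called and not tested. NTN1 and SEMA3C lie at the top right above the line, and EFNB3, EPHB3, SEMA6A, SEMA5B and EPHB1 lie below it.

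Interleukin-1 and TNF are known to act through NF-kappa-B and AP-1 transcription factors, so the promoters of the guidance genes were searched for both consensus motifs. RefSeq promoter sequences on GRCh38.p14 matched 58 of the 67 genes, and the 250 bases before each start were read on both strands. The kappa-B consensus of the NF-kappa-B family was found in 10 of the 58 genes (17.2%), against 11.8% of 27305 genes with a promoter. Counted per promoter, it was in 13.3% of the 90 promoters of these genes and in 9.96% of all 35116. The motif is rich in G and C, and the median G and C content was 65% in the promoters of the guidance genes and 58% in all; its part in the difference was not tested. It was found in 1 of 17 genes called higher, 4 of 18 called lower and 5 of 18 not called. The AP-1 consensus TGANTCA, with any base at N, was found in 1 of the 58 (PLXNC1, as TGATTCA), against 8.06% of all genes, and in 0 of the called genes. The part of G and C content in that difference was not tested either. For the called genes with a match in the last 100 bases, that window is shown. Of these 5 genes, SEMA3B was higher in ITC and the others were lower. Any link between a match and the direction of change was not tested. Capitals mark the kappa-B match, with overlapping matches on either strand merged, and the last base is the one before the RefSeq start. Some of these genes have several RefSeq promoters: the match was in 1 of 5 promoters of SEMA3B, 1 of 4 of SEMA4A and 2 of 3 of SEMA6D, and in the only promoter of EPHA3 and of EPHB1. The RefSeq start of the window shown lies 197 kb inside the gene start of the expression table for EPHB1. It lies 7.18 kb inside for SEMA4A and 1.60 kb inside for SEMA3B.
EPHA3, chr3:89107521-89107620, plus strand: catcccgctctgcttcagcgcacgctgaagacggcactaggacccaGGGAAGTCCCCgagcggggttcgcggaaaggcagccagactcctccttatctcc
EPHB1, chr3:134795160-134795259, plus strand: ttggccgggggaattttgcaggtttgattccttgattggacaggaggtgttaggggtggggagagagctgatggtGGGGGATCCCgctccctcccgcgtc
SEMA3B, chr3:50269061-50269160, plus strand: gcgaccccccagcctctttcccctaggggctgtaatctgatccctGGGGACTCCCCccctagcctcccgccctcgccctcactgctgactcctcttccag
SEMA4A, chr1:156154448-156154547, plus strand: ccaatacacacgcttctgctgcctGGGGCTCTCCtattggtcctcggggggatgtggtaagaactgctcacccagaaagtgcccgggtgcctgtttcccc
SEMA6D, chr15:47183989-47184088, plus strand: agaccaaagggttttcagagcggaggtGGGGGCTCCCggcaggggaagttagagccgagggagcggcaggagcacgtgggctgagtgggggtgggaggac
A match is a run of letters and does not show binding. Among the called genes, NTN1, EFNB3, SEMA6A and UNC5D matched no RefSeq promoter and were not searched.

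A list of 70 other genes of guidance signalling, made up of co-receptors, related ligands and intracellular mediators, held more rises than falls. The list was drawn up with earlier results of these data known, so its counts describe the listed genes only. Of 68 tested, 27 were higher, 7 lower and 34 not called, with a median log2 fold change of 0.32, beside -0.01 over all tested genes and the shares of 20.4% and 19.0% given above. With library size only as the scale the counts were 19 higher and 8 lower. By group, co-receptors and other receptors had 4 higher and 1 lower of 8 tested, semaphorin mediators 10 and 1 of 20, slit mediators 4 and 2 of 9, netrin mediators 2 and 1 of 9, ephrin mediators 2 and 0 of 9 and cytoskeletal regulators 3 and 0 of 8. Among 5 netrin-like ligands and RGM proteins, 2 were higher and 2 lower. Of the genes called higher, L1CAM, MICAL1, FARP1, FARP2, ABL1, ENAH, ROCK2 and CFL1 lost the call under at least 1 other setting.

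Of the 4 with the smallest p among those higher, DRAXIN stood out. DRAXIN, a secreted chemorepellent that binds DCC, had 573, 444 and 416 CPM in the ITC libraries, against 17.9, 14.6 and 14.6 CPM in the vehicle libraries (log2 fold change 4.93 ± 0.20 SE, adjusted p = 2.31e-10). MET, the hepatocyte growth factor receptor, which associates with plexin-B1, had 97.9, 127 and 108 CPM in the ITC libraries, against 4.86, 6.75 and 8.21 CPM in the vehicle libraries (log2 fold change 4.06 ± 0.21 SE, adjusted p = 1.85e-09). LIMK2, the kinase that phosphorylates cofilin, had 455, 355 and 353 CPM in the ITC libraries, against 40.1, 38.6 and 40.9 CPM in the vehicle libraries (log2 fold change 3.28 ± 0.17 SE, adjusted p = 2.33e-09). No library of either group came near the other in these genes. ABL2, a tyrosine kinase acting on the actin cytoskeleton, had 163, 184 and 172 CPM in ITC and 50.2, 47.5 and 48.4 CPM in vehicle (log2 fold change 1.83 ± 0.15 SE, adjusted p = 1.80e-07). Of those lower, SRGAP3, a slit-ROBO GTPase-activating protein, had 4.67, 7.04 and 7.25 CPM in ITC and 52.8, 51.7 and 37.1 CPM in vehicle (log2 fold change -2.90 ± 0.21 SE, adjusted p = 6.41e-08). PAK3, a Rac and Cdc42 effector, had 3.52, 5.27 and 4.66 CPM in ITC and 18.3, 19.5 and 17.97 CPM in vehicle (log2 fold change -2.05 ± 0.20 SE, adjusted p = 1.40e-06). These falls too kept the groups apart. NTNG1, a membrane-anchored netrin relative, had 7.46, 7.88 and 7.19 CPM in ITC and 22.7, 22.2 and 18.7 CPM in vehicle (log2 fold change -1.50 ± 0.18 SE, adjusted p = 8.94e-06). DPYSL5, of the collapsin response mediator family and best known from neurons, had 58.1, 60.7 and 44.02 CPM in ITC and 238, 207 and 120.2 CPM in vehicle (log2 fold change -1.80 ± 0.23 SE, adjusted p = 2.00e-05). It fell with the neuron markers described above, and their part in the result was not tested. The uncalled genes of highest CPM were DPYSL3 (log2 fold change 0.34 ± 0.18 SE, adjusted p = 0.155), which was called higher without vehicle replicate 1 (adjusted p = 0.0449), and GPC1 (log2 fold change -0.18 ± 0.19 SE, adjusted p = 0.487).

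The co-receptors were chosen for mention after their values were seen. NRP2, the neuropilin that binds SEMA3C and SEMA3F, had 2472, 2684 and 2054 CPM in the ITC libraries, against 761, 615 and 532 CPM in the vehicle libraries (log2 fold change 1.92 ± 0.18 SE, adjusted p = 1.02e-06). NRP1 had 150.1, 174 and 151 CPM in ITC and 95.7, 85.2 and 88.4 CPM in vehicle (log2 fold change 0.82 ± 0.15 SE, adjusted p = 5.15e-04). Both neuropilins were higher in each ITC library. DCC, the netrin receptor of attraction, had 4.67, 4.05 and 4.302 CPM in ITC and 10.8, 11.6 and 7.75 CPM in vehicle (log2 fold change -1.21 ± 0.23 SE, adjusted p = 6.55e-04), so it was lower while NTN1 was higher. NEO1, a DCC relative, was not called (log2 fold change 0.54 ± 0.21 SE, adjusted p = 0.0561), but was called higher without a filter on low counts (adjusted p = 0.0264), without ITC replicate 3 (0.0175), without vehicle replicate 1 (0.0155), by DESeq2 (0.0496) and by limma-voom (0.0482).

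**Figure D5:**
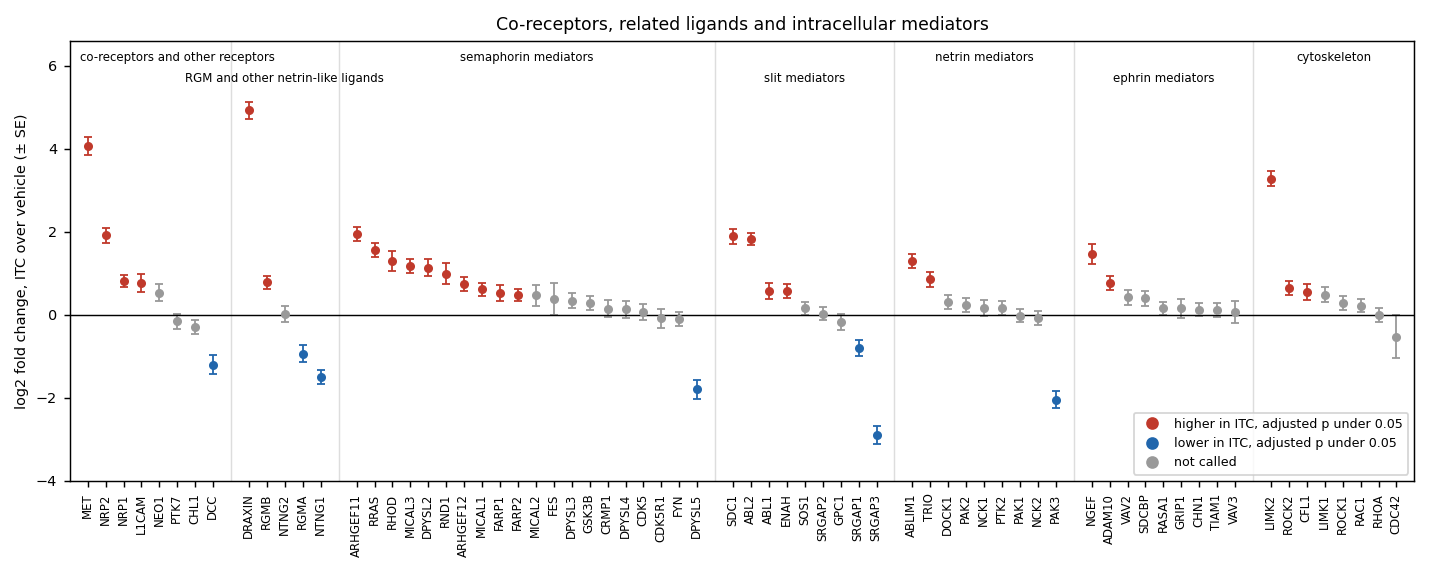
Log2 fold change of ITC over vehicle (y axis, ± SE) of the 68 tested co-receptors, related ligands and mediators, grouped by role along the x axis; each point is 1 gene from the same fit, red where higher, blue where lower and grey where not called. DRAXIN (4.93 ± 0.20), MET (4.06 ± 0.21) and LIMK2 (3.28 ± 0.17) lie above all others, and SRGAP3 (-2.90 ± 0.21) is the lowest.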

How the data were processed

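Members and gene lists were chosen with earlier results of these data known. The authors deposited 1 table with raw counts per gene and FPKM values for 6 libraries, per the file headers. FPKM divides counts by gene length and by a library size. The library size behind the deposited FPKM is not the total of the deposited counts. FPKM compared between groups therefore already carries a scaling between libraries, which was not varied here. GRCh38 (hg38) and DESeq2 are named in the submitters' processing notes. Aligner, counting program and strand setting: not given in the sources used here. Listed genes have at least 2 counts in total.

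Groups and replicate numbers came from the sample titles. From the deposited counts, edgeR 4.0.16 (R 4.3.3) fitted ITC against vehicle with filterByExpr, TMM scaling and the quasi-likelihood F-test, with Benjamini-Hochberg adjustment over 16756 genes at 0.05. In simulated data with 16756 genes, 65% of 100 genes changed 2-fold and 90% of 100 changed 4-fold were called in the right direction, and 12 unchanged genes were called. The simulation changed only 200 genes, whereas 39.4% of tested genes were called in the data. The adjustment depends on that share, so these rates need not hold for this comparison. TMM factors were 0.886 to 0.953 in ITC and 1.07 to 1.10 in vehicle, and mitochondrial genes took 2.64% to 3.43% of counts in ITC and 3.65% to 5.03% in vehicle. Replicates differed by more than sampling noise (chi-square per degree of freedom 10.4 to 62.9), so all were kept as separate samples. P-values measure the spread between these libraries of 1 cell line; no label ties a library to a capsule batch. Counting error is smaller at greater depth.

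Values in every library are given for the called members with the 10 largest rises and the 10 largest falls, for called members that lost the call in any alternative, and for the 6 uncalled members of highest CPM. From the list of 70 other guidance genes, up to 4 called genes per direction with the smallest p and 2 uncalled genes of highest CPM are named. Shared exons were read from GENCODE 29, and promoters from RefSeq on GRCh38.p14. Alternatives were other scalings, other filters, DESeq2 1.42.0, limma-voom (limma 3.58.1), a replicate block and leaving out each library.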

Additional observations from a re-analysis of the deposited data

How the results depend on the processing

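Requiring at least a 2-fold change as well as the adjusted p gave 3588 genes called in place of 6599, 10 members higher in place of 18, 15 lower in place of 21, and 13 listed guidance genes higher in place of 27. Leaving out 1 library at a time gave 5136 to 6955 genes called, 13 to 18 members higher and 17 to 23 lower, 21 to 30 listed guidance genes higher and 7 lower, and 5 to 9 members at least 4-fold lower and 0 to 1 at least 4-fold higher. The lowest count, 5, was without ITC replicate 1. Of 866 checks of a single member under an alternative, 45 lost a call, 21 gained one and 0 turned to the opposite direction. DESeq2 called 17 members higher and 20 lower, and limma-voom 18 and 21.

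The series text says that each capsule batch was divided between the treatments, but no label says that the replicate number marks the batch. Deviations of same-numbered libraries from their group means correlated at 0.268, 0.00733 and 0.384 over 16756 genes, and not every library correlated best with its own number, so the numbers were not shown to pair the libraries. With the replicate block, 8416 genes were called, 22 members were higher and 24 lower, and 39 of the 39 calls were kept. The block added calls for SEMA3D (adjusted p = 0.0177), PLXNA4 (0.0396), UNC5B (0.0310) and EFNA4 (0.0232), all higher, and for SEMA4G (0.0289), PLXNC1 (0.0375) and NTN3 (0.0218), all lower. Of the other guidance genes named, it added NEO1 (5.12e-04) and DPYSL3 (0.0104), both higher. Low counts limit, among others, SEMA4A, EPHA1, EPHA5, EPHA6, EPHA10, EFNA3, NTN3, NTN4, PLXNC1, SLIT1 and the 5 genes left out by the filter.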
